A study of Mus musculus with 6 samples.

Results

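The 51 genes described here encode the transforming growth factor beta (TGF-beta) and bone morphogenetic protein (BMP) system: 14 secreted ligands, the protease Bmp1, 4 latent TGF-beta binding proteins, 10 signalling receptors, 3 co-receptors or decoys, 7 secreted antagonists and follistatin-family proteins, 8 SMAD proteins and the 4 ID factors that BMP signals switch on. They were taken as a fixed list of names, chosen with earlier results of these data known. Their counts beside the shares of all genes are therefore a description. Of the 51 genes, 49 had at least 1 CPM (the read count of a gene scaled to the size of its library) in at least 3 libraries and were tested, among 15009 genes tested and 26814 gene symbols in the count file. All 49 reached that minimum in all 6 libraries, so none entered the test through the level of 1 genotype alone.

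RNA was taken from the top lip of adult female C57BL/6J mice aged 2 to 6 months, 3 wild type (WT) mice and 3 mice of the Gtf2ird1 tm1Hrd line, labelled KO, which carries a targeted allele of the transcription factor gene Gtf2ird1 in every tissue. Each mouse gave 1 mRNA library, named here WT1 to WT3 and KO1 to KO3 after the replicate numbers of the labels. The comparison asks how the transcripts of this signalling system differ between the 2 genotypes in a tissue that holds epidermis, hair follicles, dermis, vessels, nerves and skeletal muscle. Bulk tissue cannot separate fewer cells of a type from less RNA per cell.

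Transcripts counted for Gtf2ird1 itself were higher in the libraries labelled KO, and the cause was not tested. Gtf2ird1 measured 78.2, 70.2 and 70.7 CPM in the WT libraries and 166, 162 and 144 in those labelled KO, a log2 fold change of 1.11 (SE 0.13, adjusted p = 0.0018). The study's methods state that the genotype of the mice was checked again on tail biopsies. All directions below are for libraries by their label. Total counts ran from 20164081 to 29491767 per library, and 3 counts, the limit that a count of 0 allows, came to 0.0986 to 0.154 CPM. KO3 stood nearer to the WT libraries than KO1 and KO2 did, so results are also given without it. It was picked for this closeness, so a lower adjusted p without KO3 is a description and not further support. Levels are CPM after TMM scaling, given per library or as mean ± SD (n = 3). RPKM, the CPM per kilobase of exon, is used where the levels of different genes are compared. Log2 fold changes are for libraries labelled KO against WT. Adjusted p-values come from edgeR's quasi-likelihood F test with Benjamini-Hochberg adjustment over all 15009 genes. The standard error (SE) of a log2 fold change is the one implied by the F statistic of that test.

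TGF-beta, activin and BMP ligands are secreted as dimers. They bring together type I and type II receptor kinases, which phosphorylate receptor-activated SMADs. SMAD2 and SMAD3 carry TGF-beta and activin signals, SMAD1, SMAD5 and SMAD9 carry BMP signals, and SMAD4 is the partner of both. SMAD6, SMAD7, the decoy receptor BAMBI and secreted antagonists such as noggin and chordin limit the signal. In skin, TGF-beta restrains keratinocyte proliferation and drives matrix production by fibroblasts, while BMPs act in epidermal differentiation and in the growth cycle of the hair follicle.

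Most of the system was measured at lower levels in the libraries labelled KO, but few genes passed the test. Tgfb2, Bmp4, Bmp6 and Bambi fell, 4 of 49 against a background of 2.09% of all tested genes called lower, and 0 of 49 rose, against 4.38% called higher. The log2 fold change was below 0 in 42 members and above 0 in 7, where 52% of all tested genes were below 0 and 48% above. Its median over the members was -0.41 with quartiles of -0.58 and -0.20, beside a median of -0.02 and quartiles of -0.33 and 0.28 over all tested genes. In 26 members all 3 libraries labelled KO lay below all 3 WT libraries, in 1 member, Smad2, they lay above, and in 22 the genotypes overlapped. Among all tested genes the genotypes did not overlap with the libraries labelled KO lower in 18.1% and higher in 13.5%. At an unadjusted p under 0.05 stood 27 of the 49 members, Bmpr1a and Smad2 above 0 and the others below, against 29.6% of all tested genes. At an adjusted p under 0.1 stood 14 members below 0 and 1 above, Smad2, against 8.53% and 8.32% of all tested genes.

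**Figure D1:**
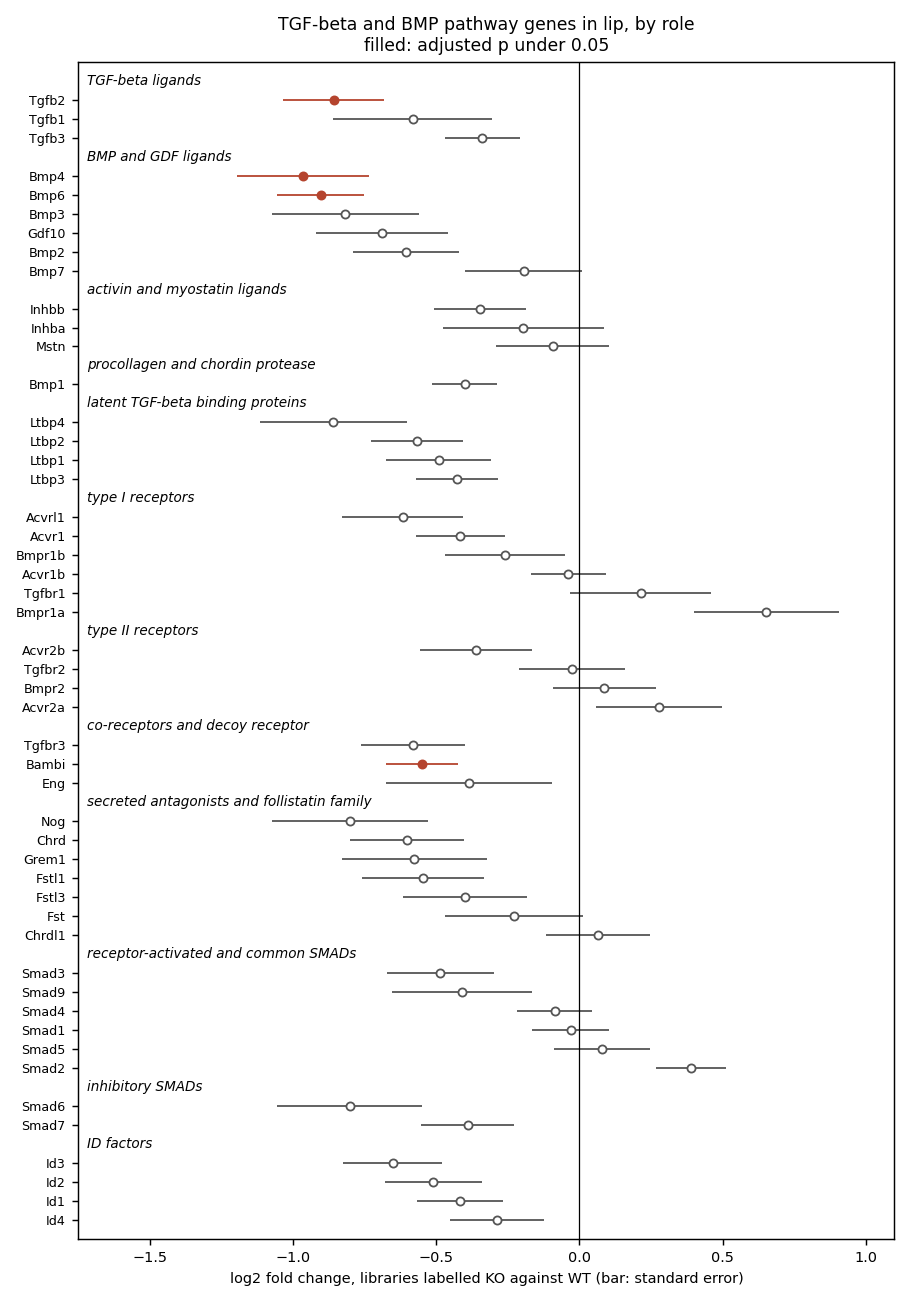
The log2 fold change (horizontal axis, libraries labelled KO against WT) with its standard error is drawn for the 49 tested genes, grouped by role and ordered within each group, with filled points for the 4 genes with an adjusted p under 0.05. Points lie left of 0 for 42 genes, and the 7 right of 0 are receptors, SMADs and 1 antagonist.

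The number of calls differed between tools. edgeR's exact test, the test of the study's methods, called 8 members lower and 0 higher, against 7.15% and 7.76% of all tested genes. The additional genes were Bmp3, Id3, Ltbp4 and Smad6. DESeq2 called 7 lower (Bambi, Bmp4, Bmp6, Id3, Ltbp4, Smad6 and Tgfb2) and 1 higher (Smad2), against 5.31% and 8.93% of the genes it gave an adjusted p. Over the 11 alternative fits with all 6 libraries, Tgfb2 and Bmp6 were called in 11, Bmp4 in 8 and Bambi in 6.

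KO3 stood nearest to the WT libraries in most members. The median difference of the members from the WT mean, in log2 CPM, was -0.61 in KO1, -0.42 in KO2 and -0.23 in KO3, and lay between -0.04 and 0.02 in the WT libraries. The same median over all genes was -0.01, -0.03 and -0.05 in KO1, KO2 and KO3. In 40 of the 49 members (81.6%) KO3 was closer to the WT mean than the mean of KO1 and KO2 was, as in 66.0% of all tested genes. Without KO3 the quasi-likelihood test called 25 members lower and 3 higher (Acvr2a, Bmpr1a and Smad2), against 16.2% and 16.9% of all genes tested then. Leaving out WT1, WT3, KO1 or KO2 left 0 members called, and leaving out WT2 left 1, Bmp6. In these 5 fits 0.122 to 0.419% of all genes tested were called lower and 1.41 to 3.22% higher.

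**Figure D2:**
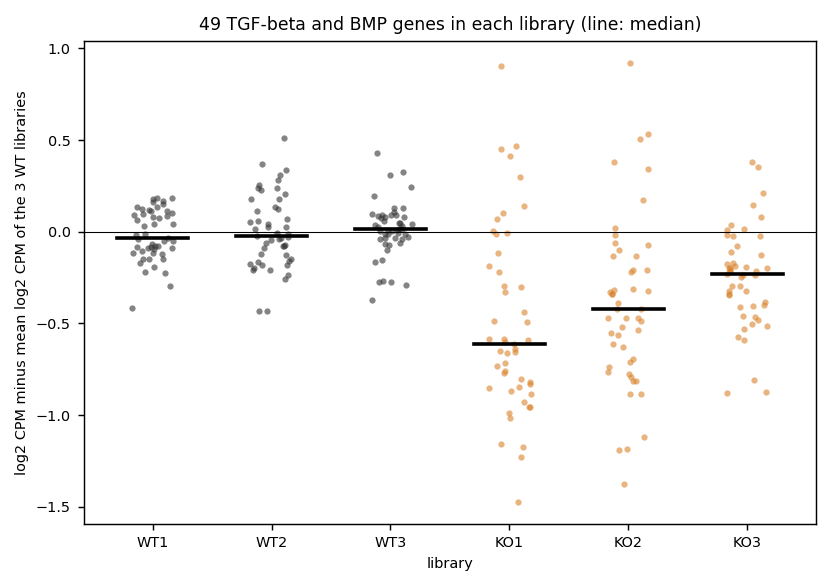
Each point is 1 of the 49 tested genes in 1 library, as its log2 CPM minus the mean log2 CPM of the 3 WT libraries (vertical axis), and each line is the median of the library. The medians of KO1, KO2 and KO3 are -0.61, -0.42 and -0.23, with KO3 nearest to 0.

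Among the TGF-beta ligands, Tgfb2 fell and the others did not pass the test. Tgfb2, which limits keratinocyte proliferation and is made by the hair follicle, measured 39.4, 35.7 and 35.2 CPM in WT1, WT2 and WT3 and 20.1, 16.1 and 24.6 CPM in KO1, KO2 and KO3. The genotypes did not overlap, and KO3 was the highest of the libraries labelled KO. The mean fell by 44.8%, a log2 fold change of -0.86 (SE 0.18, adjusted p = 0.0311), and it was -1.02 without KO3 (adjusted p = 0.00228). With 1 library left out at a time the log2 fold change stayed between -1.02 and -0.66, and the adjusted p was under 0.05 without KO3 and over it without each of the other 5. Tgfb3, the ligand with the highest level per length of the family, measured 51.9, 47.0 and 49.97 CPM in the WT libraries and 35.4, 39.1 and 43.2 in those labelled KO, which did not overlap (log2 fold change -0.34, SE 0.13, adjusted p = 0.136). Tgfb1, the isoform of immune cells and platelets, overlapped between genotypes, with 32.3 ± 4.97 CPM in the WT libraries and 21.6 ± 8.38 in the libraries labelled KO (adjusted p = 0.197).

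Tgfb2 lies on chromosome 1 (186622792 to 186705989, minus strand, GRCm38), and an exon of Gm29491 overlaps it on the other strand, as exons of Gm37804 and Gm48008 do for Tgfb3. The strand setting of the counting is not given in the sources used here, so reads of overlapping genes cannot be told apart. Ltbp2, Ltbp3, Bmpr1a, Acvrl1, Acvr2a, Eng, Chrd, Fst, Fstl3 and Id4 also share exonic sequence with a gene on the opposite strand, and Tgfbr3 and Smad5 with one on the same strand. The 250 bases before the RefSeq start of Tgfb2 and of Bmp4 (GRCm38.p6, chr1:186705990-186706239 and chr14:46390670-46390919, minus strand, written 5′ to 3′) are shown because these are the genes among those that fell whose windows hold no exon of the gene itself. Capitals mark the letters GGATTA, the core recognised by GTF2IRD1, CAGAC, a SMAD-binding element, and GGCGCC, a BMP-SMAD site, on either strand (GGATTA reads TAATCC and CAGAC reads GTCTG on the other strand). No motif overlaps another. The Tgfb2 window touches an exon of another gene, Gm29491, and the Bmp4 window touches no annotated exon.
Tgfb2: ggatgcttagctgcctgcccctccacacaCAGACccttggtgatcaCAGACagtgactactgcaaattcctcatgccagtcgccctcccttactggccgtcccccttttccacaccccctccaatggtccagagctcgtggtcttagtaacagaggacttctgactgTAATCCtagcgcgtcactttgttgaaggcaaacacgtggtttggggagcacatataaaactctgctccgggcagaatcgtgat
Bmp4: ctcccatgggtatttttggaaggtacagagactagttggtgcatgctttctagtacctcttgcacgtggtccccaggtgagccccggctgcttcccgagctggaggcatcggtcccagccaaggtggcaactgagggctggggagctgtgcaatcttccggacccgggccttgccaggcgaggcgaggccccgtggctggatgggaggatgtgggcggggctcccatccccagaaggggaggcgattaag
The Tgfb2 window holds GGATTA 1 time, as TAATCC, and CAGAC 2 times, and the Bmp4 window holds none of the motifs. A RefSeq window of this kind was found for 36 members and 1 window was searched for each, that of the start nearest to the 5′ end of the gene, while the share over all genes counts all 32851 windows, also where a gene has several. Of the 36 member windows, 2 held GGATTA (Tgfb2 and Ltbp2), beside 6.25% of all windows. CAGAC was found in 17 of 36 (47.2%), beside 42.2% of all windows. A match in these letters is a description of the window, not a bound site.

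The BMP and GDF ligands had the lowest median log2 fold change of all role groups, -0.75 over the 6 tested, and all 6 were below 0. Bmp4, a mesenchymal ligand of the hair follicle that specifies the hair shaft, measured 36.3, 41.9 and 43.0 CPM in WT1, WT2 and WT3 and 18.1, 15.6 and 28.4 CPM in KO1, KO2 and KO3. The genotypes did not overlap and KO3 lay between the others labelled KO and WT. The mean fell by 48.8% (log2 fold change -0.97, SE 0.23, adjusted p = 0.0474), and the value was -1.26 without KO3 (adjusted p = 0.000979). The call was lost without each of the other libraries (highest adjusted p = 0.215). Bmp4 lies on chromosome 14 (46383520 to 46390669, minus strand) and shares exonic sequence with Gm15217 on the other strand.

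Bmp6, a BMP of differentiating keratinocytes, was among the members whose libraries labelled KO lay closest together. It measured 21.8, 17.6 and 21.3 CPM in the WT libraries and 10.6, 10.9 and 10.9 in those labelled KO. It fell by 46.5% (log2 fold change -0.90, SE 0.15, adjusted p = 0.013), and stayed between -0.94 and -0.83 with 1 library left out at a time. The adjusted p was under 0.05 without WT2 and without KO3 and over it without each of the others, with a highest value of 0.112. Bmp6 (chromosome 13, 38345107 to 38500302, plus strand) overlaps Txndc5 on the opposite strand.

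The other BMP ligands did not pass the test. Bmp2, which acts in the follicle and in bone, and Bmp3, an antagonistic BMP, had log2 fold changes of -0.61 (adjusted p = 0.085) and -0.82 (adjusted p = 0.0893) without overlap between genotypes. Gdf10 was at -0.69 (adjusted p = 0.101), also without overlap. Bmp7, a ligand of epithelia and the BMP with the highest level per length, overlapped, with 118, 95.3 and 113 CPM in the WT libraries and 108, 66.8 and 109 in those labelled KO (log2 fold change -0.20, SE 0.20, adjusted p = 0.544). KO2 alone was low in Bmp7, and without KO2 the log2 fold change was 0.06.

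Bmp5 and Gdf15 were below the minimum and were not tested. Bmp5 had 11, 12 and 10 counts in the WT libraries and 20, 23 and 24 counts in KO1, KO2 and KO3. The genotypes did not overlap, in the direction opposite to the other BMPs. Bmp5 shares exonic sequence with Gm26903 on the opposite strand, so reads of the 2 genes cannot be told apart. In the fit with no filter its log2 fold change was 1.11 (SE 0.35, adjusted p = 0.101). Gdf15, a stress-induced ligand, had 11, 4 and 3 counts in the WT libraries and 2, 7 and 1 in those labelled KO.

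Activin and myostatin ligands showed small differences, and none of the 3 passed the test. Inhbb, the activin B subunit and the one with the highest level per length of the 3, measured 67.5, 52.1 and 61.9 CPM in the WT libraries and 39.6, 52.0 and 51.03 in those labelled KO (log2 fold change -0.35, SE 0.16, adjusted p = 0.191). WT2 and KO2 were nearly equal. Inhba, the activin A subunit, and Mstn, the muscle growth inhibitor, overlapped between genotypes at -0.20 and -0.09. Mstn had 12.2 ± 2.94 CPM in the WT libraries and 11.5 ± 0.557 in the libraries labelled KO, while all 8 skeletal muscle markers had log2 fold changes below 0.

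Bmp1 is not a BMP ligand but the protease that trims procollagens and cleaves chordin. It measured 124, 130 and 122 CPM in the WT libraries and 92.7, 93.6 and 98.6 in those labelled KO, without overlap and with a narrow spread in both. Its log2 fold change was -0.40 (SE 0.11, adjusted p = 0.0744).

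The latent TGF-beta binding proteins, a family of the extracellular matrix, were lower in all 4 genes and passed the test in none. Ltbp4, a protein of elastic fibres and the member with the highest level per length of all (92.2 ± 10.3 RPKM in WT), measured 653, 522 and 612 CPM in WT1, WT2 and WT3 and 214, 321 and 450 CPM in KO1, KO2 and KO3. The genotypes did not overlap, and the SD was 66.8 CPM in the WT libraries and 118 in those labelled KO. The log2 fold change was -0.86 (SE 0.26, adjusted p = 0.081), and -1.15 without KO3 (adjusted p = 0.00399). Ltbp2 measured 30.2, 28.8 and 29.7 CPM in the WT libraries and 16.6, 23.5 and 19.7 in those labelled KO, again without overlap (log2 fold change -0.57, SE 0.16, adjusted p = 0.0735). Ltbp3 and Ltbp1 were at -0.43 and -0.49, with overlap in Ltbp1. Summed over the group the level was 748 to 895 CPM in WT, and 359, 503 and 638 CPM in KO1, KO2 and KO3. The sum of the 7 dermal fibroblast markers put KO1, KO2 and KO3 in the same order, with 5663 to 7942 CPM in the WT libraries and 2237, 3002 and 6342 CPM in KO1, KO2 and KO3. Most of that sum came from Col1a1, Col1a2 and Col3a1. Singly, these 3, Pdgfra and Thy1 followed the order. Lum (91.5, 88.8 and 86.5 CPM) and Dpt (105, 101 and 130 CPM in KO1, KO2 and KO3) did not. The part of dermal fibroblasts in the LTBP values was not tested.

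**Figure D3:**
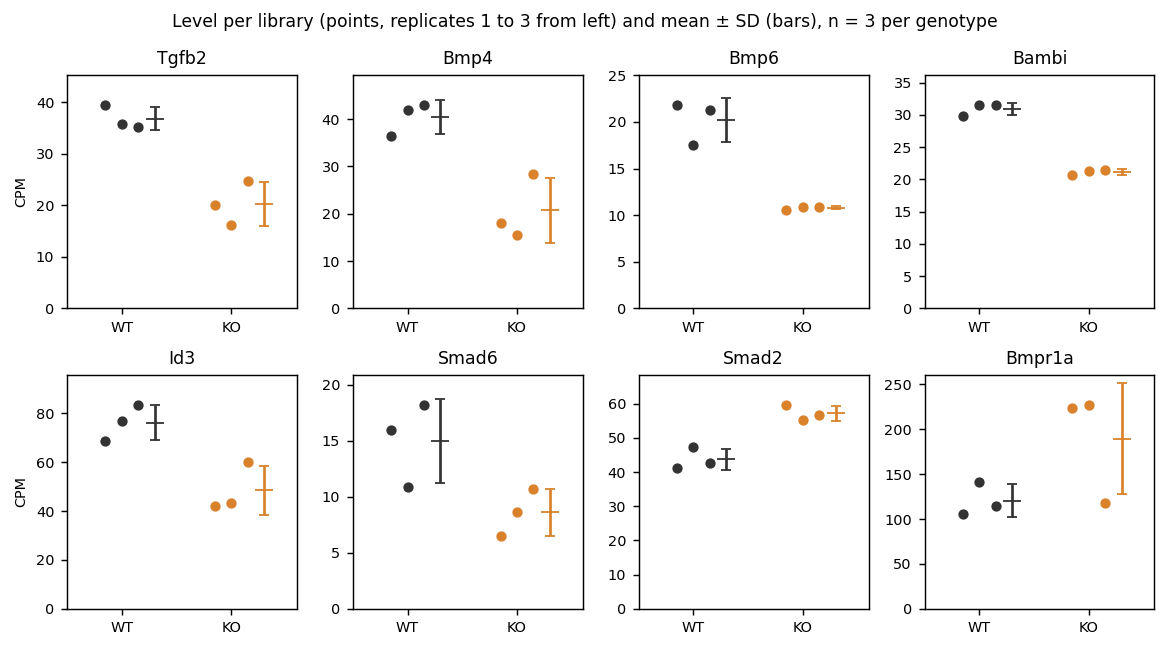
The level of 8 members in CPM (vertical axes, from 0) is drawn for each library as a point, in replicate order from the left, with the mean ± SD of each genotype as a bar (n = 3). The groups are apart in Tgfb2, Bmp4, Bmp6, Bambi, Id3, Smad6 and Smad2, and overlap in Bmpr1a, where KO3 measured 118 CPM beside 223 and 227 CPM in KO1 and KO2.

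The type I receptors went in both directions and none passed the test. Bmpr1a, the main BMP receptor of skin epithelium, measured 106, 141 and 114 CPM in WT1, WT2 and WT3 and 223, 227 and 118 CPM in KO1, KO2 and KO3. KO1 and KO2 stood above all WT libraries and KO3 lay among them. The log2 fold change was 0.65 (SE 0.25, adjusted p = 0.136), and 0.91 without KO3 (adjusted p = 0.0031). Acvrl1, the endothelial receptor also called ALK1, measured 25.6, 26.0 and 28.9 CPM in the WT libraries and 13.8, 15.3 and 23.4 in those labelled KO (log2 fold change -0.62, SE 0.21, adjusted p = 0.105). The genotypes did not overlap, and KO3 was nearest to WT. Acvr1b, an activin receptor, had the highest level per length in the group over all 6 libraries, while in those labelled KO alone Bmpr1a was higher (29.8 ± 9.74 RPKM beside 27.8 ± 2.84). Acvr1b measured 135, 124 and 120 CPM in the WT libraries and 132, 128 and 108 in those labelled KO (log2 fold change -0.04, SE 0.13, adjusted p = 0.859). Tgfbr1, the TGF-beta type I receptor, was at 0.21 with overlap. Acvr1 and Bmpr1b were at -0.42 and -0.26 without overlap.

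The type II receptors, which bind ligand and activate the type I chain, overlapped between genotypes in 3 of 4 genes. Tgfbr2, the TGF-beta receptor with the highest level per length in this group, measured 161, 153 and 154 CPM in the WT libraries and 126, 134 and 199 in those labelled KO. KO3 was above all WT libraries and KO1 and KO2 were below them (log2 fold change -0.03, SE 0.18, adjusted p = 0.936), and the sign depended on the library left out. Acvr2a measured 41.7, 49.8 and 44.9 CPM in the WT libraries and 62.8, 65.5 and 36.9 in KO1, KO2 and KO3, so that KO3 was the lowest of all 6 libraries (log2 fold change 0.28, SE 0.22, adjusted p = 0.419). Bmpr2, the main BMP type II receptor, was at 0.09 with overlap. Acvr2b was the exception without overlap, at 3.52, 4.55 and 4.05 CPM in the WT libraries and 3.27, 3.22 and 2.93 in those labelled KO (log2 fold change -0.36, SE 0.19, adjusted p = 0.248). In Tgfbr1, Bmpr2 and Acvr2a alike, KO1 and KO2 lay above all WT libraries and KO3 below them.

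Of the co-receptors and decoys, Bambi fell. Bambi is a receptor without a kinase domain that blocks TGF-beta and BMP signalling and is itself induced by both. It measured 29.8, 31.5 and 31.5 CPM in the WT libraries and 20.6, 21.3 and 21.4 in those labelled KO. Its SD was 0.959 CPM in the WT libraries and 0.448 in those labelled KO, and KO3 stood with KO1 and KO2. The mean fell by 31.7% (log2 fold change -0.55, SE 0.12, adjusted p = 0.0427), and the value was -0.55 without KO3 (adjusted p = 0.0154). The call was lost without each of the other libraries (highest adjusted p = 0.229) and with a block for replicate number (adjusted p = 0.0659). Eng, the endothelial co-receptor endoglin, measured 59.0, 54.3 and 69.5 CPM in WT1, WT2 and WT3 and 30.0, 39.7 and 70.3 CPM in KO1, KO2 and KO3. KO3 was the highest of all 6 libraries, and the log2 fold change of -0.39 (SE 0.29, adjusted p = 0.395) was -0.80 without it (adjusted p = 0.0088). The 7 endothelial markers summed to 138 and 156 CPM in KO1 and KO2 and 245 CPM in KO3, beside 207 to 252 CPM in WT. KO1, KO2 and KO3 stood in the order of this sum in Eng and Acvrl1. Among the markers singly, Vwf, Kdr and Tek followed that order. Pecam1, Cdh5 and Cldn5 had KO1 slightly above KO2, and Emcn was highest in KO2 among the libraries labelled KO. The part of endothelial cells in the Eng and Acvrl1 values was not tested. Tgfbr3, or betaglycan, which presents TGF-beta2 to its receptors, was at -0.58 without overlap (adjusted p = 0.088).

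The secreted antagonists were below 0 in 6 of 7 genes, and none passed the test. Chrd, or chordin, which binds BMPs outside the cell, measured 5.41, 6.67 and 5.13 CPM in the WT libraries and 3.63, 3.42 and 4.30 in those labelled KO, without overlap (log2 fold change -0.60, SE 0.20, adjusted p = 0.0987). Nog, or noggin, the BMP antagonist of the follicle dermal papilla, was at 4.08 ± 0.57 CPM in the WT libraries and 2.36 ± 0.783 in the libraries labelled KO, also without overlap (log2 fold change -0.80, SE 0.27, adjusted p = 0.104). Grem1, or gremlin, overlapped at -0.58. Fstl1, a secreted protein of the mesenchyme and the member of the group with the highest level per length, measured 225, 349 and 268 CPM in the WT libraries and 166, 169 and 241 in those labelled KO, with KO3 above WT1 (log2 fold change -0.55, SE 0.21, adjusted p = 0.139). Fst and Fstl3, the activin-binding follistatins, overlapped at -0.23 and -0.40. Chrdl1 was the member above 0, with 7.19, 7.06 and 8.14 CPM in the WT libraries and 9.16, 7.36 and 6.90 in those labelled KO (log2 fold change 0.06, SE 0.18, adjusted p = 0.833).

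The receptor-activated SMADs of the TGF-beta branch lay on opposite sides of 0. Smad2 measured 41.2, 47.2 and 42.5 CPM in the WT libraries and 59.5, 55.4 and 56.7 in those labelled KO. It was the member of the 49 whose libraries labelled KO all lay above WT, with KO3 among the others (log2 fold change 0.39, SE 0.12, adjusted p = 0.0902). DESeq2 gave it an adjusted p of 0.0307 and the exact test 0.16. Smad3 measured 50.4, 45.2 and 46.4 CPM in the WT libraries and 25.6, 33.8 and 41.9 in KO1, KO2 and KO3, all of them below WT (log2 fold change -0.49, SE 0.19, adjusted p = 0.132). The share of Smad2 in the summed RPKM of Smad2 and Smad3 was 36.8 ± 2.83% in WT and 52.1 ± 6.77% in the libraries labelled KO. It ran from 34.1 to 39.7% in WT and was 59.4, 50.9 and 46.1% in KO1, KO2 and KO3, without overlap. The BMP-branch genes Smad1 and Smad5 were at -0.03 and 0.08, and Smad9, the lowest of them per length, at -0.41, all with overlap. Smad4, the common partner and the SMAD with the highest level per length, measured 77.0, 68.8 and 74.1 CPM in the WT libraries and 63.0, 66.8 and 77.3 in those labelled KO (log2 fold change -0.09, SE 0.13, adjusted p = 0.684).

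Both inhibitory SMADs, which are themselves induced by the signals they damp, were lower without overlap and did not pass the test. Smad6, which acts mainly on BMP signals, measured 16.0, 10.9 and 18.2 CPM in WT1, WT2 and WT3 and 6.50, 8.65 and 10.7 CPM in KO1, KO2 and KO3, where WT2 and KO3 were close (log2 fold change -0.80, SE 0.25, adjusted p = 0.0893). Its adjusted p was 0.0301 under the exact test and 0.0495 under DESeq2. Smad7, which acts on both branches, measured 29.3, 24.4 and 29.2 CPM in the WT libraries and 17.7, 21.7 and 23.8 in those labelled KO (log2 fold change -0.39, SE 0.16, adjusted p = 0.157).

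The ID genes encode helix-loop-helix proteins that lack a DNA-binding domain and hold back differentiation factors, and they are direct targets of BMP-activated SMADs. All 4 were below 0 and none passed the quasi-likelihood test. Id3 measured 68.7, 76.9 and 83.3 CPM in the WT libraries and 42.1, 43.3 and 60.2 in KO1, KO2 and KO3. The genotypes did not overlap, and KO3 was nearest to WT (log2 fold change -0.65, SE 0.17, adjusted p = 0.0639). It passed under the exact test (adjusted p = 0.0219), under DESeq2 (adjusted p = 0.0318) and with a block for replicate number (adjusted p = 0.0479). Id1, with the highest level per length of the 4 (58.7 ± 4.22 RPKM in WT and 44.0 ± 7.07 RPKM in the libraries labelled KO), measured 71.9, 62.6 and 69.9 CPM in the WT libraries and 45.3, 47.4 and 60.5 in those labelled KO (log2 fold change -0.42, SE 0.15, adjusted p = 0.119). Id2 was at -0.51 (adjusted p = 0.0992) without overlap and Id4 at -0.29 with overlap. Summed over the 4 genes the level was 230 to 255 CPM in the WT libraries and 160 to 196 in those labelled KO. The 250 bases before the RefSeq start of Id4 (GRCm38.p6, chr13:48260866-48261115, plus strand, 5′ to 3′) are shown as an example of a window with the BMP-SMAD letters GGCGCC, in capitals.
Id4: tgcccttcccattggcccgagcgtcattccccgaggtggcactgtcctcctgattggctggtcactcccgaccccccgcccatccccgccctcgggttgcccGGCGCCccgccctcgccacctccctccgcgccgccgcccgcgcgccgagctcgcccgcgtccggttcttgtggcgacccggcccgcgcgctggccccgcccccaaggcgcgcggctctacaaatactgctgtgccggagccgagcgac
GGCGCC was found in 8 of the 36 member windows (22.2%), beside 9.59% of all windows. These were the windows of Bmpr1a, Bmpr2, Chrd, Grem1, Id2, Id4, Smad9 and Tgfbr1. The Id3 window held CAGAC instead, 2 times. The GC content of the windows was not compared.

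The make-up of the ligand families also differed between the libraries. Among the TGF-beta ligands, per length, Tgfb3 made up 53.5 ± 1.26% in WT and 60.3 ± 4.26% in the libraries labelled KO, and Tgfb2 made up 23.2 ± 1.12% and 18.1 ± 2.89%, both without overlap. Among Bmp2 to Bmp7, Bmp4 made up 31.0 ± 3.69% in WT and 22.2 ± 3.59% in the libraries labelled KO, and Bmp7 made up 46.4 ± 2.64% and 57.3 ± 6.36%. The share of Bmp7 was 64.1, 51.6 and 56.2% in KO1, KO2 and KO3 and at most 48.9% in WT. Among the LTBPs, the share of Ltbp4 was 78.2 ± 1.26% in WT and 72.2 ± 4.89% in the libraries labelled KO, with KO3 (77.4%) among the WT values. No test was run on shares.

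**Figure D4:**
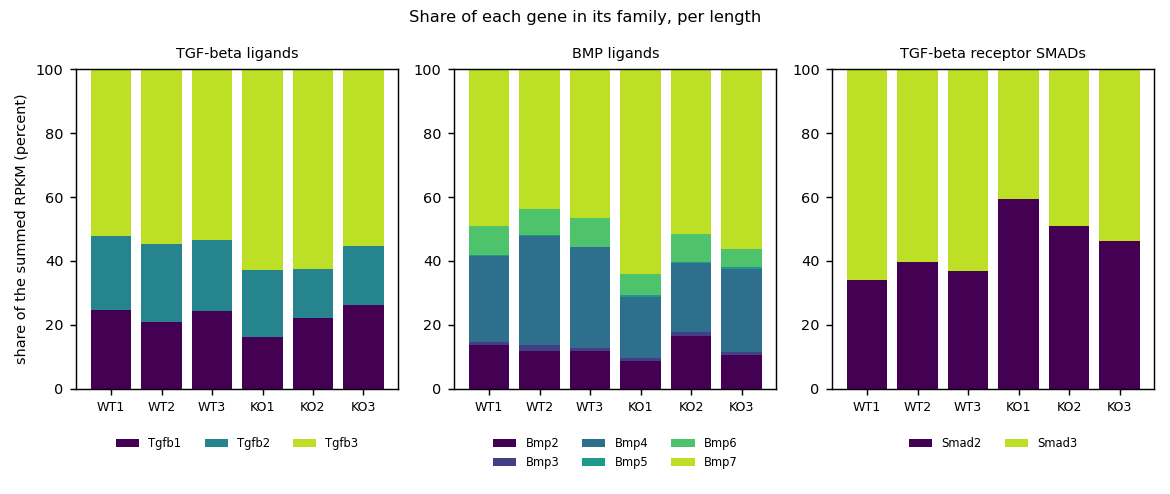
Bars give each gene's share (percent, vertical axis) of the summed RPKM of its family in each library, for the TGF-beta ligands, Bmp2 to Bmp7, and Smad2 with Smad3. The share of Smad2 is 34.1 to 39.7% in the WT libraries and 46.1 to 59.4% in those labelled KO, and that of Bmp7 is higher in each library labelled KO than in each WT library.

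A further 82 genes of the pathway were listed for what they do, and 59 of them were tested. Sostdc1 rose, 1 of 59 beside 4.38% of all tested genes called higher. Ctgf and Tagln fell, 2 of 59 beside 2.09% called lower. Of the 59, 17 were above 0 and 42 below, beside 48% and 52% of all tested genes. Their median was -0.24, beside -0.02 over all tested genes. Sostdc1, a secreted BMP and Wnt antagonist of the hair follicle, measured 111, 81.5 and 145 CPM in the WT libraries and 210, 235 and 298 in those labelled KO (log2 fold change 1.14, SE 0.23, adjusted p = 0.0279). Its call held without WT3, KO1 or KO3 and was lost without WT1, WT2 or KO2, with log2 fold changes between 0.99 and 1.36. It rose while none of the 7 antagonists among the members passed the test, and the difference between Sostdc1 and them was not tested. The other 9 tested antagonists and ligand regulators did not pass, with log2 fold changes between -0.71 (Dand5) and 0.15 (Twsg1).

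Among 9 genes commonly used as TGF-beta responses, 8 were below 0. Ctgf, a matricellular protein, measured 64.3, 108 and 66.4 CPM in the WT libraries and 41.7, 32.4 and 44.5 in those labelled KO (log2 fold change -1.01, SE 0.23, adjusted p = 0.0431). Tagln, a smooth muscle actin-binding protein, measured 58.7, 66.3 and 72.0 CPM in the WT libraries and 40.0, 44.0 and 46.6 in those labelled KO (log2 fold change -0.59, SE 0.14, adjusted p = 0.0437). Both were without overlap, and the 7 smooth muscle and pericyte markers summed to 879 to 1255 CPM in the WT libraries and 388 to 755 in those labelled KO, all 7 below 0 and 0 called. Des alone gave much of this sum, with 719 ± 188 CPM in the WT libraries and 298 ± 140 in those labelled KO. Beside it, the 8 skeletal muscle markers summed to 11578 to 15054 CPM in the WT libraries and 5689 to 9116 in those labelled KO. The part of skeletal muscle in the Des value, and so in the sum, was not tested. The log2 fold changes of the 7 smooth muscle and pericyte markers ran from -1.27 in Des to -0.05 in Myh11. With 1 library left out at a time, Ctgf (between -1.14 and -0.67) and Tagln (between -0.67 and -0.47) were called without KO3 and not without any other library. The part of smooth muscle cells and pericytes in the Tagln value was not tested. Tagln shares exonic sequence with Gm48529 and Pcsk7 on the opposite strand. Tgfbi, a TGF-beta induced matrix protein, was at -0.58 (adjusted p = 0.0516) and Postn, or periostin, at 0.55 with overlap.

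Among 8 genes commonly used as BMP responses, 7 were below 0 and none passed the test. Msx2, a homeobox factor of the follicle, measured 46.7, 41.2 and 60.4 CPM in the WT libraries and 19.3, 26.2 and 33.0 in those labelled KO, without overlap (log2 fold change -0.92, SE 0.23, adjusted p = 0.0532). Its relative Msx1 was at -0.71 (adjusted p = 0.0663) and the Notch and BMP target Hey1 at -0.81 (adjusted p = 0.0709), both without overlap, and Dlx5 at 0.41 with overlap. The 10 hair follicle and hair shaft markers summed to 5918 to 7404 CPM in the WT libraries and 3696 to 5072 in those labelled KO, with 9 of 10 below 0 and Hoxc13 called lower. Their part in the BMP ligand and response values was not tested.

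**Figure D5:**
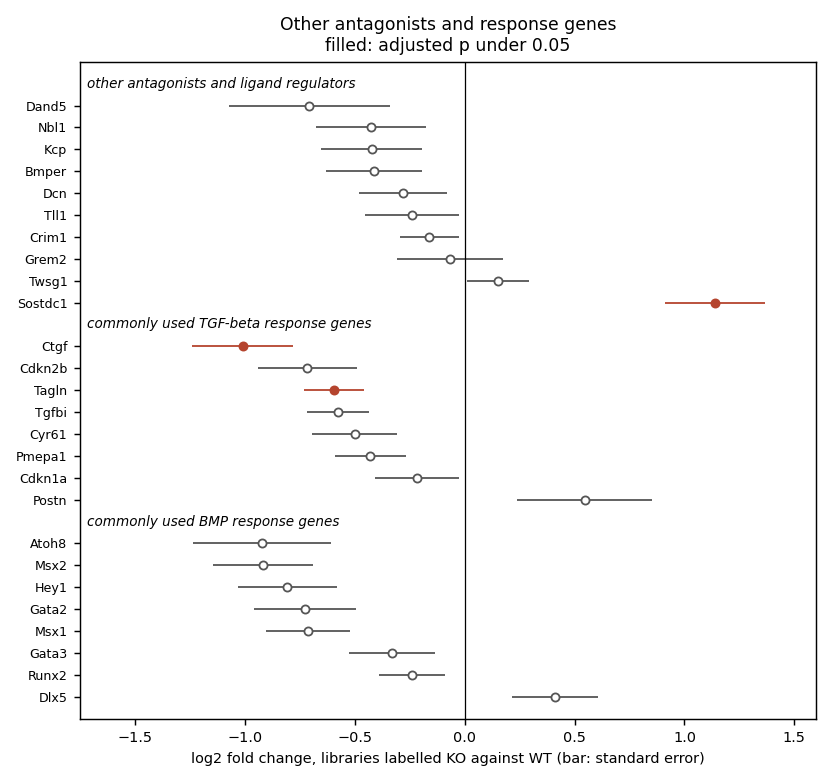
The log2 fold change with its standard error (horizontal axis, libraries labelled KO against WT) is drawn for other antagonists, 8 of the 9 TGF-beta response genes and the BMP response genes, with filled points for an adjusted p under 0.05. Sostdc1 stands at 1.14, Ctgf at -1.01 and Tagln at -0.59, and 7 of the 8 BMP response genes lie left of 0.

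The remaining groups of the pathway held no called gene. The other ligands had 4 of 19 listed genes tested, all below 0. Of the 5 tested genes among the other receptors and co-receptors, Hfe2, a BMP co-receptor of muscle and liver, was at -1.13 (adjusted p = 0.072). Cd109, a TGF-beta co-receptor of keratinocytes that limits the signal, was at 0.66 (adjusted p = 0.0593). Both were without overlap. The 8 skeletal muscle markers summed to 11578 to 15054 CPM in the WT libraries and 5689 to 9116 in those labelled KO, all 8 below 0 and Tnnt3 called lower, and their part in the Hfe2 value was not tested. The 7 suprabasal keratinocyte markers summed to 19690 to 24332 CPM in the WT libraries and 30694 to 46401 in those labelled KO, with 6 of 7 above 0 and Ivl called higher. The 7 basal keratinocyte markers gave 3 above 0 and 4 below, with 0 called. In each of these lists no marker was at 0 in all libraries. Of the 9 genes that anchor or activate latent TGF-beta, 6 were below 0. Fbn1, or fibrillin, was the lowest at -0.52 (adjusted p = 0.337) with overlap, and Thbs1, or thrombospondin, was at -0.49 (adjusted p = 0.0731) without overlap. The 14 intracellular modulators were the group with most genes above 0, at 9 of 14, from -0.58 in Nedd4l to 0.81 in Usp15.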

How the data were processed

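Counts were deposited as whole numbers of reads per gene symbol, without normalization. The authors mapped paired-end reads of 6 mRNA libraries to GRCm38 with TopHat2 2.0.8 and Bowtie2 2.1.0 and counted reads that map uniquely to annotated genes with HTSeq-count. How reads over several genes and read strand were treated in counting is not given in the sources used here. All 6 columns were used, and 0 entries named no gene. No source gives cages, litters or extraction batches.

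The 15009 of 26814 genes that reached 1 CPM in 3 or more libraries were scaled by TMM and tested with the quasi-likelihood F test of edgeR 4.0.16 (legacy=FALSE) in R 4.3.3, with Benjamini-Hochberg adjustment over all tested genes and a threshold of 0.05. The procedure was tested on simulated data with known changes. Alternatives used edgeR's exact test, DESeq2 1.42.0, limma 3.58.1, other scalings and filters, a block for replicate number, each library left out, and a threshold of 0.1. RPKM used the merged exon length in GENCODE M21, in which 24858 symbols were found, and coordinates come from it. Promoter windows are from RefSeq, GRCm38.p6.

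The members and lists were chosen with earlier results of these data known, so no test was made over a list. Given by library are the members called, Tgfb2, Bmp4, Bmp6, Smad6 and Id3, the member of lowest p in each direction per role, and the one with the highest level per length. The floor of 3 counts covers counting error only. The SE and the p-values set the genotype difference against the spread between 3 mice per genotype, estimated with information from all tested genes. The values of 1 listed TGF-beta response gene are not reported here, and it stays in the counts of its list.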

Additional observations from a re-analysis of the deposited data

How the results depend on the processing

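Of the members, 4 were called lower and 0 higher. The number lower was 8 with edgeR's exact test, 7 with DESeq2, 2 with DESeq2's size factors, 2 with no filter, 2 with at least 10 counts in every library and 14 at an adjusted p under 0.1. The number higher was 1 with DESeq2 and 1 at an adjusted p under 0.1. With 1 library left out at a time, 0 to 25 members were lower and 0 to 3 higher, with the 25 and 3 coming without KO3. Of the other pathway genes, 1 was higher and 2 lower. The pairs higher and lower were 3 and 11 with the exact test, 2 and 8 with DESeq2, 1 and 1 with DESeq2's size factors, 1 and 1 with library size alone, 1 and 4 with upper-quartile scaling, 2 and 1 with no filter, 1 and 1 with at least 10 counts, 1 and 1 with the replicate block, and 2 and 11 at an adjusted p under 0.1. Leaving out each library gave 0 to 9 higher and 0 to 21 lower, again highest without KO3. Over all genes, 657 were higher and 314 lower, 1165 and 1073 with the exact test, 1511 and 898 with DESeq2, and 2496 and 2395 without KO3. As shares of all genes tested these were 4.38% and 2.09%, 7.76% and 7.15%, 8.93% and 5.31%, and 16.9% and 16.2%. The shares were 4.41% and 1.38% with DESeq2's size factors, 3.84% and 1.67% with library size alone, and 4.09% and 2.69% with upper-quartile scaling. They were 3.41% and 0.761% with no filter, 3.24% and 1.34% with at least 10 counts, 3.86% and 1.45% with the replicate block, and 8.32% and 8.53% at 0.1. The median log2 fold change of the members stayed between -0.47 and -0.36 in the fits with all libraries and between -0.48 and -0.28 with each left out. The cause of these differences was not tested.

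Tgfb2 and Bmp6 kept their call in all 11 alternative fits with every library. Bmp4 had an adjusted p of 0.0527 with DESeq2's size factors, 0.0506 with no filter and 0.0531 with at least 10 counts in every library. Bambi had 0.0511, 0.105 and 0.0515 there, and 0.0573 with library size alone. Signs changed in members whose log2 fold change was near 0. Acvr1b became 0.000392 with DESeq2 and 0.006919 with no filter, and ran from -0.0798 to 0.0469 with 1 library left out. Tgfbr2 became 0.0187 with DESeq2, 0.000869 with DESeq2's size factors and 0.029 with no filter, and ran from -0.26 to 0.15 with 1 library left out. The same range was -0.000076 to 0.16 for Chrdl1, lowest without KO1, -0.17 to 0.0371 for Smad4, highest without KO1, and -0.30 to 0.0615 for Bmp7, highest without KO2.

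Whether replicate numbers pair the samples cannot be told from these data. Deviations from the genotype means correlated at -0.19, 0.31 and 0.33 for numbers 1, 2 and 3. WT2 correlated best with KO1 (0.42), and WT3 correlated best with KO3. Deviations within groups of 3 libraries depend on each other, so these correlations cannot exclude a pairing. With the replicate block 4 members were lower, Bmp4, Bmp6, Tgfb2 and Id3 (adjusted p = 0.0479), while Bambi had 0.0659.

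With 3 mice per genotype, 1 library decided many calls. Bmp5 and Gdf15 lay below the minimum of the filter, and the precision of genes at a few CPM is limited by counting. Cell-type make-up and level per cell cannot be told apart. Gtf2ird1 was higher in the libraries labelled KO, and every direction is given by label.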
